A study of Mus musculus with 9 samples.

Results

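The Sox genes encode transcription factors that bind DNA through a high mobility group (HMG) box, and 9 of them were followed in the olfactory bulb of the developing mouse. They were taken as the probe sets of the array whose only gene symbol was Sox1, Sox2, Sox3, Sox4, Sox5, Sox6, Sox9, Sox10 or Sox11. A probe set is a group of short array probes that reads 1 transcript region. The rule gave 36 probe sets of the 34958 with 1 symbol and the 45101 in all, 5 of them for SoxB1 genes (Sox1, Sox2, Sox3), 14 for SoxC (Sox4, Sox11), 11 for SoxD (Sox5, Sox6) and 6 for SoxE (Sox9, Sox10). Olfactory bulbs of CD1 mice, an outbred and unmanipulated stock, were dissected at 9 ages, on each embryonic day from E11 through E18 and on the day of birth (P0). Every age had 1 array from 1 animal, so the error of every trend is the scatter of 9 animals around it. Levels are log2 values per probe set, and P0 was placed at day 19 on the age axis. By Xist and Y-linked genes, 4 of the animals (E11, E12, E15 and P0) were female and 5 were male. All 10 olfactory bulb markers looked up passed the filter, although Tbx21, a factor of mitral and tufted cells, read 2.40 at E11. Markers of meninges and mesenchyme were present too and moved with age: 7 of 8 rose (median slope 0.53 log2 units per day), where 25.2% of all genes tested did. Their summed log2 level was 11.12 at E11, 10.27 at E13, its lowest, and 14.00 at E18, its highest. Ogn, Col1a1 and Slc6a13 were under the filter level of 5 at E11 (2.76, 4.18 and 2.60), so that later arrays brought them into the test.

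Sox factors are grouped by the sequence of the HMG box. SoxB1 factors keep neural progenitors undifferentiated, SoxC factors act in newborn neurons to switch on neuronal genes, SoxD factors lack an activation domain of their own and modify the action of other Sox factors, and SoxE factors specify glia, neural crest derivatives and cartilage. In the olfactory bulb, Sox2 marks progenitors, Sox11 and Sox4 the young neurons, Sox9 the radial glia and astrocytes, and Sox10 the ensheathing glia of the olfactory nerve and the oligodendrocyte precursors.

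Promoter sequences are shown for the SoxC pair Sox4 and Sox11, whose slopes on age differed, and for the SoxB1 pair Sox1 and Sox2, whose difference in slope did not pass the test. RefSeq (build GRCm38.p6) gave windows of 250 bases before to 50 bases after the start for 6 of the 9 genes. Capitals mark matches, on either strand, to the Sox motif ACAAAG, the CCAAT box (CCAAT) or the GC box (GGGCGG). Each window is written 5′ to 3′ in the direction of the gene, Sox1 at chr8:12395269-12395568, plus strand, Sox2 at chr3:34649745-34650044, plus strand, Sox4 at chr13:28953650-28953949, minus strand and Sox11 at chr12:27342669-27342968, minus strand.
Sox1: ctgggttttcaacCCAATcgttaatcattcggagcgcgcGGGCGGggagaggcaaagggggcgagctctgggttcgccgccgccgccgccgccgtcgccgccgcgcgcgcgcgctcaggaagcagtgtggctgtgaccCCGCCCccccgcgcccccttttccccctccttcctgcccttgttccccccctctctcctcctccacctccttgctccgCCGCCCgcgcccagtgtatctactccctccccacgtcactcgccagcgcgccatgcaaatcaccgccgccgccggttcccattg
Sox2: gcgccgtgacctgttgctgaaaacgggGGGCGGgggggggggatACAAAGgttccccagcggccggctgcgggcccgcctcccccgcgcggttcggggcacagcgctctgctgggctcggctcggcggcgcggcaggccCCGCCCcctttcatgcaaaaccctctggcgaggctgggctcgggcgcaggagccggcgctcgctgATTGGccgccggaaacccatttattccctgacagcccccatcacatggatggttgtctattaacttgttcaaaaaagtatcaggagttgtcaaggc
Sox4: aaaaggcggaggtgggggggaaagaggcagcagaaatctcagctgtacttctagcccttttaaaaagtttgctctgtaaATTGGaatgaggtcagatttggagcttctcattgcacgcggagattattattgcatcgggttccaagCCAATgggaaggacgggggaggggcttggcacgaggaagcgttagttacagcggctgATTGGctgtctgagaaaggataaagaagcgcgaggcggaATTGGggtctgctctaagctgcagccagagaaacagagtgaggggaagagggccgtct
Sox11: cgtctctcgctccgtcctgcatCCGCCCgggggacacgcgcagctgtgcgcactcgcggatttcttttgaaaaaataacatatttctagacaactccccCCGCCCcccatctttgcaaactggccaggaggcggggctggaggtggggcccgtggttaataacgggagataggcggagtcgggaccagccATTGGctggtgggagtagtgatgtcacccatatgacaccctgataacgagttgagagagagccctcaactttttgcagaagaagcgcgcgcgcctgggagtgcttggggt
The Sox2 window held 1 ACAAAG match, at position -206 from the start, and the windows of Sox1, Sox4 and Sox11 held 0, where 18.7% of 32851 windows of this length over all genes held at least 1. The CCAAT box was found 4 times in the Sox4 window and 1 time each in those of Sox1, Sox2 and Sox11, against 37.4% of all windows with any. The GC box was found 3 times for Sox1, 2 times each for Sox2 and Sox11 and 0 times for Sox4, against 35.7% of all windows. The windows differ in GC content: 70.7% for Sox1, 66.3% for Sox2, 58.7% for Sox11 and 52.0% for Sox4, where the median of all windows was 52.7%. None of the 4 windows held TATAAA, which 13.6% of all windows held, or the related Sox motif ACAATG (12.6%). The SoxD pair Sox5 and Sox6, whose slopes also differed, had windows that are not shown. That of Sox5 held 1 ACAATG match, and those of Sox6, which has several starts, held 0 to 2 ACAAAG matches each. These are matches of letters, not measured binding sites.

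The members went different ways, and genes of the same Sox group did not share a course. Of the 9 genes, 5 fell with age (Sox2, Sox3, Sox6, Sox9 and Sox11), Sox10 rose, and Sox1, Sox4 and Sox5 did not pass the test. The test was the slope of the log2 level on age in limma, with Benjamini-Hochberg adjustment over 10864 genes and a threshold of 0.05. Over all genes tested, 21.9% fell and 25.2% rose, so 6 calls in 9 stood against 47.2% of genes called in either direction. The median slope of the members was -0.072 log2 units per day, beside 0.0020 over all genes tested. The group medians were -0.11 for SoxB1, -0.011 for SoxC, -0.22 for SoxD and 0.040 for SoxE, but each of these medians covered only 2 or 3 genes.

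**Figure D1:**
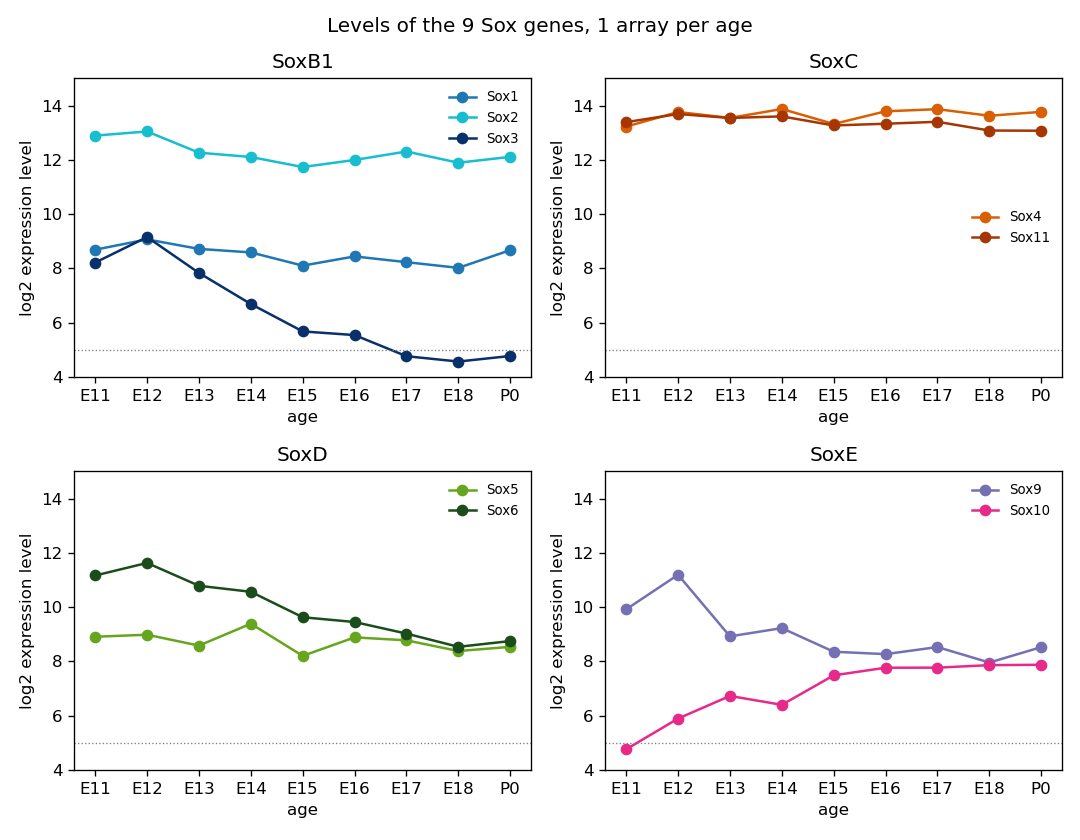
Log2 expression level (vertical axes) of the 9 Sox genes against age, with 1 panel per Sox group and 1 array per point; the dotted line is the filter level of 5. Sox3, Sox6 and Sox9 end lower than they begin, Sox10 ends higher, and Sox4 stays between 13.22 and 13.87.

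Among the SoxB1 genes, Sox3 fell steeply while Sox2 fell little. Sox3, an X-linked factor of early neural progenitors, read 8.22 at E11, 9.16 at E12, 7.84 at E13, 6.69 at E14, 5.68 at E15, 5.55 at E16, 4.77 at E17, 4.57 at E18 and 4.78 at P0. The values went down at each step from E12 to E18, and the last 3 lay under the filter level of 5. The slope was -0.58 ± 0.070 per day on the log2 scale (± is the standard error, over 9 arrays; adjusted p = 0.000146), and with values under 5 set to 5 Sox3 ended at least 9.29-fold under its E11 level. It was the 18th steepest fall among the 10864 genes.

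Sox2, the factor that maintains neural stem cells, read 12.89 at E11, 13.05 at E12, 12.26 at E13, 12.11 at E14, 11.74 at E15, 12.00 at E16, 12.31 at E17, 11.89 at E18 and 12.11 at P0. The 2 earliest arrays were the highest, and from E13 on the level moved between 11.74 and 12.31 without a direction. The slope of -0.11 ± 0.038 passed (adjusted p = 0.0356), but over E13 to P0 alone it was -0.011 (adjusted p = 0.850), and leaving out a single array ended the call for E11 (adjusted p = 0.153), for E12 (0.112), for E16 (0.0526) and for E18 (0.0776). Sox1, the SoxB1 gene first switched on with neural induction, read between 8.02 at E18 and 9.07 at E12 and ended at 8.67, near its E11 level of 8.69. Its slope was -0.072 ± 0.035 (adjusted p = 0.117), and without the P0 array, where it was 0.65 above E18, it passed at -0.12 (adjusted p = 0.0164).

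The slopes within SoxB1 were compared by the exact permutation test, two-sided, over all 362880 orders of the 9 ages, applied to the difference of 2 log2 levels on the same array. P-values were adjusted over the 36 pairs of members. Sox3 fell faster than Sox2 by 0.47 ± 0.065 log2 units per day (exact permutation adjusted p = 0.00146) and faster than Sox1 by 0.51 ± 0.051 (exact permutation adjusted p = 0.000422). Between Sox1 and Sox2 the slopes differed by 0.038 ± 0.036 (exact permutation adjusted p = 0.358), which does not show that they act alike.

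The SoxC genes were measured at high levels on every array, and their courses parted slowly. Sox11, a factor of newborn neurons, read 13.39 at E11, 13.69 at E12, 13.54 at E13, 13.60 at E14, 13.27 at E15, 13.33 at E16, 13.40 at E17, 13.08 at E18 and 13.07 at P0. The 2 latest arrays were the lowest. Its slope was -0.061 ± 0.018 (adjusted p = 0.0202), a 1.24-fold difference between E11 and P0, and it no longer passed when E12 (adjusted p = 0.0652), E18 (0.0612) or P0 (0.0811) was left out. Sox4, its close relative, read 13.22 at E11, 13.76 at E12, 13.54 at E13, 13.87 at E14, 13.32 at E15, 13.79 at E16, 13.87 at E17, 13.62 at E18 and 13.77 at P0. No direction is visible in these values, and the slope of 0.039 ± 0.026 did not pass (adjusted p = 0.239). It was 0.011 without the E11 array, the lowest reading, and 0.011 for the mean of the Sox4 probe sets. The difference between them, Sox4 minus Sox11, nevertheless had a slope of 0.099 ± 0.014 log2 units per day (exact permutation adjusted p = 0.00141), and it lay between 0.096 and 0.11 when any 1 array was left out.

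Several probe sets read the SoxC genes. All 6 of Sox11 passed the filter, and 5 of them fell (limma over 21724 probe sets, where 23.7% fell and 20.7% rose), with slopes from -0.23 to -0.061. The probe set used, the brightest, had the flattest slope of the 6. The second brightest read 13.47 at E11 and 12.53 at P0 (-0.16 ± 0.024, adjusted p = 0.000458). The probe set with a slope of -0.23 read 10.90 at E13 and 11.29 at E14 and 9.01 at E15, a step that the other 5 did not show to that size. For Sox4, 5 of 8 probe sets passed the filter, 0 of these passed the test, and their slopes ran from -0.027 to 0.039.

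Of the SoxD genes, Sox6 fell and Sox5 did not pass. Sox6, a factor that acts in progenitors of the cortex and in interneurons, read 11.17 at E11, 11.63 at E12, 10.79 at E13, 10.57 at E14, 9.63 at E15, 9.45 at E16, 9.03 at E17, 8.54 at E18 and 8.75 at P0. The level went down at each step from E12 to E18, and the values of E17 to P0 all lay under those of E11 to E13. The slope was -0.39 ± 0.038 (adjusted p = 4.06e-05), with a 5.33-fold lower level at P0 than at E11. All 3 Sox6 probe sets that passed the filter fell, with slopes between -0.42 and -0.39.

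Sox5, known for the timing of deep-layer projection neurons in the cortex, read 8.91 at E11, 8.99 at E12, 8.58 at E13, 9.39 at E14, 8.21 at E15, 8.89 at E16, 8.78 at E17, 8.38 at E18 and 8.54 at P0. The highest and the lowest of these values were on consecutive days, E14 and E15. The slope of -0.057 ± 0.040 did not pass (adjusted p = 0.268), nor did any of the 4 Sox5 probe sets that passed the filter, whose slopes ran from -0.11 to -0.057. All 4 had their highest reading at E14. The slope of Sox5 minus Sox6 was 0.34 ± 0.045 (exact permutation adjusted p = 0.00123).

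The SoxE genes went in opposite directions. Sox10, the factor of ensheathing glia, oligodendrocyte precursors and neural crest cells, read 4.77 at E11, 5.90 at E12, 6.73 at E13, 6.40 at E14, 7.49 at E15, 7.77 at E16, 7.77 at E17, 7.86 at E18 and 7.88 at P0. It was lowest at E11, where it lay under the filter level, and from E16 on it stood between 7.77 and 7.88. The slope was 0.36 ± 0.055 (adjusted p = 0.000543), and P0 exceeded E11 by at least 7.35-fold. The squared term of age also passed (adjusted p = 0.0460). A peak or dip further needed a turning point over 1 day from the ends: 4.96% of all genes were peaks and 1.26% dips. By this rule Sox10 was a peak, but its fitted turning point lay at day 18.0 and its highest measured level was at P0. The squared term thus describes a rise that levels off. Only 1 of 3 Sox10 probe sets passed the filter, and the other 2 read at most 4.20, so that this course rests on 1 probe set.

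Sox9, which keeps radial glia and drives astrocyte and cartilage programmes, read 9.92 at E11, 11.19 at E12, 8.92 at E13, 9.23 at E14, 8.36 at E15, 8.27 at E16, 8.53 at E17, 7.96 at E18 and 8.53 at P0. The E12 array stood 1.27 above E11 and 2.27 above E13, and the values of E17 to P0 all lay under those of E11 to E13. The slope was -0.28 ± 0.075 (adjusted p = 0.0110), a 2.63-fold lower level at P0 than at E11. Over E13 to P0 alone the slope was -0.13 (adjusted p = 0.123). The second Sox9 probe set that passed the filter read 7.38 at E11, 7.79 at E12, 6.56 at E13 and 5.24 at P0 and fell by 0.31 ± 0.049 per day (adjusted p = 0.000673). The slope of Sox9 minus Sox10 was -0.65 ± 0.13 (exact permutation adjusted p = 0.00214), and over E13 to P0 alone it was -0.36 (exact permutation adjusted p = 0.0706).

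**Figure D2:**
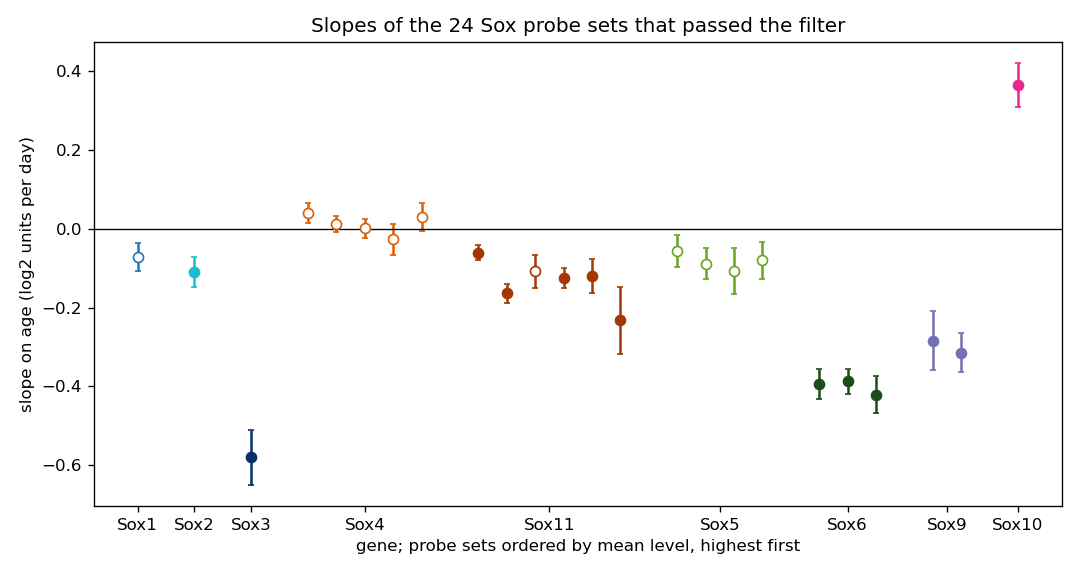
Slope on age in log2 units per day (vertical axis) of the 24 Sox probe sets that passed the filter, by gene; bars are standard errors, and filled points passed an adjusted p of 0.05 over all probe sets. The 3 Sox6 and both Sox9 probe sets lie well under 0, the 5 of Sox4 lie between -0.027 and 0.039, and the Sox10 probe set is the only filled point above 0.

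In all, 24 of the 36 Sox probe sets passed the filter, and among these 12 fell, 1 rose and 11 did not pass the test. Over all probe sets tested, 23.7% fell and 20.7% rose. Of the 12 falls, 5 were of Sox11 and 3 of Sox6, so that they are not 12 separate results. The 12 probe sets that failed the filter read at most 4.62 on any array. For Sox11, Sox6 and Sox9, the members with several called probe sets, all called slopes had the same sign. No probe set of Sox4 or Sox5 was called, and the Sox4 slopes had both signs (-0.027 to 0.039). The single tested probe set of Sox1, Sox2, Sox3 and Sox10 leaves these genes without such a comparison.

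Differences in slope were found both within and between the groups. Of the 6 pairs within a group 5 passed the exact permutation test, the exception being Sox1 with Sox2, and of the 30 pairs between groups 24 passed. The share that passes among pairs of other genes was not computed, so these counts describe only the members. Sox3, Sox4 and Sox10 differed from all 8 other members. The 7 pairs that did not pass joined Sox1, Sox2, Sox11 and Sox5 with each other in 6 cases and Sox6 with Sox9 in 1 case (-0.11 ± 0.063, exact permutation adjusted p = 0.149). The widest gap was between Sox3 and Sox10, with slopes 0.94 ± 0.11 log2 units per day apart (exact permutation adjusted p = 0.000198). Over E13 to P0 alone, 16 of the 36 pairs passed.

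**Figure D3:**
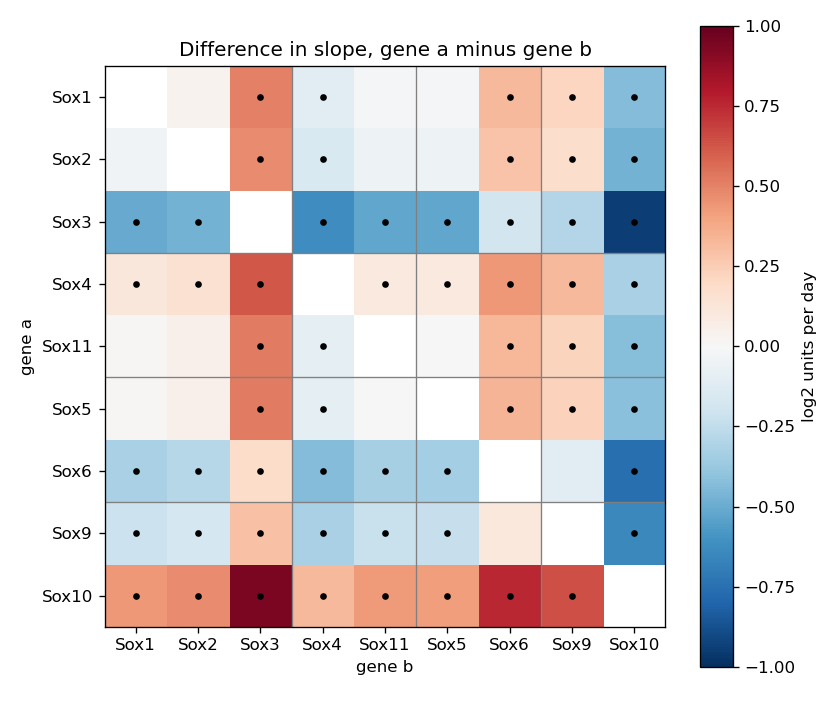
Difference in slope on age in log2 units per day (colour), row gene minus column gene, for all pairs of the 9 Sox genes; grey lines separate SoxB1, SoxC, SoxD and SoxE, and a dot marks an exact permutation adjusted p under 0.05. The rows of Sox3, Sox4 and Sox10 carry a dot against every other member, and the pale square of Sox1 with Sox2 has none.

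The falls were unevenly spread over time. Between the mean of E11 to E13 and the mean of E14 to E16, Sox3 dropped by 2.43, Sox9 by 1.39, Sox6 by 1.31 and Sox2 by 0.79 log2 units. From the middle window (E14 to E16) to the last (E17 to P0) the changes were -1.27 for Sox3, -0.28 for Sox9, -1.11 for Sox6 and 0.16 for Sox2. Sox6 and Sox3 thus went on down to the last window, while the later changes of Sox9 and Sox2 were small. Sox10 stood 1.42 higher in the middle window than in the first and another 0.62 higher in the last. Between the first and the last window the levels did not overlap for Sox1, Sox3, Sox6 and Sox9, which were lower late, and for Sox10, which was higher late. Among all genes 26.8% were lower and 25.7% higher in this sense, and the 4 and 1 of 9 Sox genes are to be read against these shares.

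**Figure D4:**
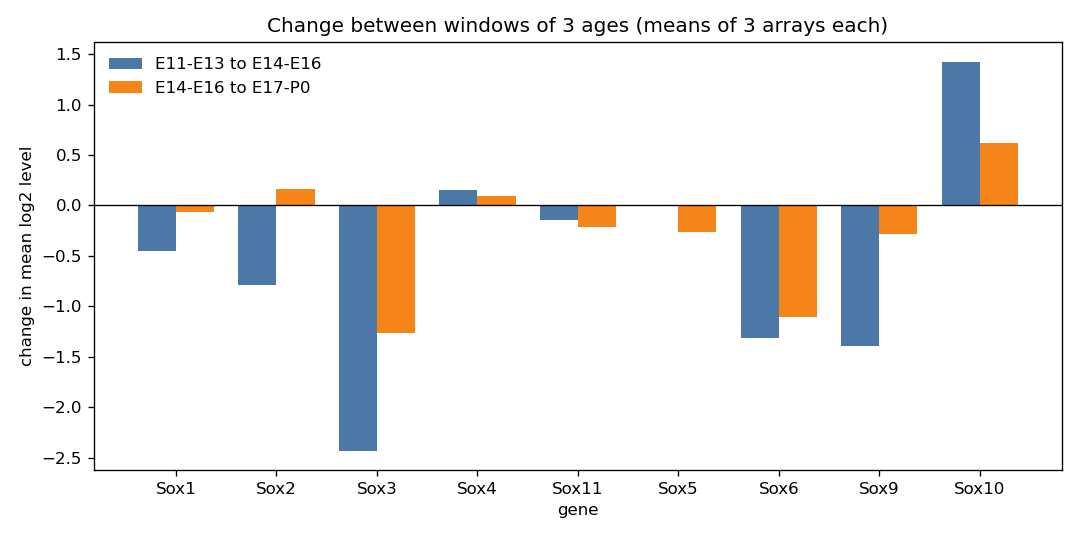
Change in mean log2 level (vertical axis) of each Sox gene from E11-E13 to E14-E16 (blue) and from E14-E16 to E17-P0 (orange), each window being the mean of 3 arrays of different ages. The first step is the larger for Sox3 (-2.43 and -1.27) and Sox9 (-1.39 and -0.28), and both steps are of like size for Sox6 (-1.31 and -1.11).

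The E12 array was high for these genes. All 9 members read higher at E12 than at E11, by 0.075 (Sox5) to 1.27 (Sox9), where 45.2% of all genes did. The highest of the 9 levels was at E12 for 6 members (Sox1, Sox2, Sox3, Sox6, Sox9 and Sox11), against 9.96% of all genes. Of the 24 member probe sets that passed the filter, 23 read higher at E12 than at E11 (46.6% of all probe sets) and 13 were highest at E12 (12.2%). These are readings of 1 animal per age and have no test. On the same arrays the summed level of the red cell markers was 16.23 at E11, 15.71 at E12 and 7.17 at P0 (log2), that of the cycling cell markers 14.73 at E11 and 14.12 at E12, and that of the neural progenitor markers 15.08 at E11 and 15.02 at E12. Other summed levels moved from E11 to E12 as well: meninges and mesenchyme markers from 11.12 to 10.38, neuron markers from 14.87 to 15.42 and astrocyte markers from 9.45 to 10.85. The part of all these markers in the E12 reading was not tested.

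Other Sox genes were read from a list of 11, of which 5 passed the filter, 2 fell and 0 rose (21.9% and 25.2% over all genes tested). Sox21, a SoxB2 repressor that counters SoxB1 factors, fell by 0.35 ± 0.059 per day (adjusted p = 0.00110), from 10.74 at E11 and 11.43 at E12 to 8.71 at P0. Sox12, the third SoxC gene, fell by 0.17 ± 0.026 (adjusted p = 0.000550), from 8.50 to 7.23. Another Sox12 probe set that passed the filter read 6.79 at E11 and 6.70 at P0. Its slope of -0.054 did not pass (limma over all probe sets, adjusted p = 0.145). The SoxF genes, which are known from endothelial cells, did not pass, with slopes of 0.15 for Sox17 (adjusted p = 0.0684), 0.12 for Sox7 (0.126) and 0.025 for Sox18 (0.661). Sox17 passed without the E11 (adjusted p = 0.0340) or P0 array (0.0454) and for E17 to P0 against E11 to E13 (a difference of 1.08, adjusted p = 0.0421), and Sox7 without P0 (0.0486). However, Sox7 reached the filter level of 5 on only 3 arrays and read 4.28 at E11 and 4.62 at P0. With values under 5 set to 5, its slope was 0.012 (adjusted p = 0.766). Of 5 tested endothelium markers 2 rose and 3 did not pass, and Pecam1 and Cdh5 stayed under the filter. Sox8, the third SoxE gene, read at most 2.88, and Sox13, the third SoxD gene, at most 2.32. Sox2ot, a long noncoding RNA gene within which Sox2 lies in RefSeq, was looked at after its values had been seen. It read 7.70 at E11, 6.67 at E15, 7.04 at E17, 8.63 at E18 and 8.68 at P0, with a slope of 0.16 ± 0.070 that did not pass (adjusted p = 0.0792). It passed without the E11 (adjusted p = 0.0210) or E17 array (0.0376), from E13 to P0 alone (0.29 per day, adjusted p = 0.0378) and with age squared in the fit (0.0243).

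Genes known to work with or under the SoxB1 factors mostly fell. The list of SoxB1 partners and targets had 10 tested genes, of which 7 fell, 1 rose and 2 missed the threshold, and the median slope was -0.16. Among all genes tested, 21.9% fell and 25.2% rose. Nes, the intermediate filament of progenitors, fell by 0.42 ± 0.031 per day (adjusted p = 9.36e-06), from 10.47 at E11 to 7.52 at P0. Lhx2, a LIM homeobox factor of the forebrain, fell by 0.38 ± 0.050, and Fabp7, a lipid-binding protein of radial and ensheathing glia, rose by 0.11 ± 0.018. All 8 tested neural progenitor markers and all 7 tested cycling cell markers fell, and the summed level of the progenitor markers went from 15.08 at E11 to 13.61 at P0. Nes, Pax6, Notch1 and Hes5 are on both the progenitor list and that of SoxB1 partners and targets, so that these counts overlap. The slopes of Sox1 and Sox2 were flatter than the median of the progenitor markers, -0.25, and that of Sox3 (-0.58) was steeper. The marker slopes ran from -0.60 (Nr2e1) to -0.067 (Hes5, flatter than Sox1 and Sox2), and the difference was not tested. In whole tissue, fewer cells of a type and less RNA per cell cannot be told apart.

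Targets of SoxC and SoxD factors were few. The 4 SoxC targets tested gave 1 fall, 1 rise and 2 genes past no threshold. Tead2, an effector of Hippo signalling expressed in progenitors, fell by 0.43 ± 0.032 (adjusted p = 9.36e-06), and Dcx, a microtubule protein of migrating neurons, rose by 0.080 ± 0.027 (adjusted p = 0.0327). The Dcx call rests largely on the E11 array, without which the slope was 0.030 (adjusted p = 0.164), and from E13 to P0 it was 0.013 (0.626). It was also lost without P0 (adjusted p = 0.0594), with median centring (0.0682), with no filter (0.0690), with embryo sex as a covariate (0.0608), for the mean of its probe sets (0.0916), between the first and last windows (0.132) and by exact rank correlation (0.115). Tubb3, a neuronal tubulin, had a slope of 0.046 (adjusted p = 0.266). Fezf2, which Sox5 is known to restrain in cortical neurons, fell by 0.44 ± 0.046 (adjusted p = 6.30e-05), and Bcl11b had a slope of -0.013 (adjusted p = 0.812). Of 8 neuron markers, 7 rose, where 25.2% of all genes tested did.

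Most of the tested targets of Sox10 rose. Among the 7 that were tested, 5 went up, 1 fell and 1 missed the threshold, with a median slope of 0.31. The shares over all genes tested were 25.2% up and 21.9% down. Ret and S100b were under the filter level at E11, so that their later readings brought them into the test. Gjb1 and Egr2, also on the list, read at most 2.60 and 4.20 and were not tested. S100b, a calcium-binding protein of glia that read 2.37 at E11, rose by 0.61 ± 0.069 (adjusted p = 9.74e-05), and Erbb3, the neuregulin receptor of crest-derived glia, rose by 0.41 ± 0.076 (adjusted p = 0.00161) and gained 12.8-fold from E11 to P0. Mitf, a factor of pigment cells that is also expressed outside them, rose by 0.44 ± 0.033 (adjusted p = 9.06e-06). Dct, an enzyme of melanin synthesis that is also expressed in forebrain progenitors, fell by 0.72 ± 0.11 (adjusted p = 0.000640). All 7 tested ensheathing glia markers rose, but Npy, Prss56, Itga7 and Cdh19 were under the filter level at E11, so that their high late readings brought them into the test. Their summed level, 14.46 at E11 and 15.58 at E18, was nearly all Fabp7 (14.46 and 15.38), and without Fabp7 it was 6.84 at E11 and 12.63 at E18. Of 4 tested oligodendrocyte precursor markers 3 rose, and Gpr17 and Nkx2-2 stayed under the filter. Cspg4, which rose, was under the filter level at E11 (4.48) and reached it on 5 arrays, so that its later readings brought it into the test. Olig2, which did not pass, read 6.05 at E11 and 3.64 at E12. The summed level of the 4 markers was 9.10 at E11, 7.05 at E12 and 11.71 at P0, most of it from Pdgfra (8.67, 6.27 and 11.14), which mesenchyme expresses too. Without Pdgfra the sum was 7.15 at E11, 5.78 at E12 and 10.09 at P0. The pigment cell markers Pmel, Tyrp1, Tyr and Mlana, read at most 3.31. Of the 8 meninges and mesenchyme markers 7 rose on the same arrays, although Ogn, Col1a1 and Slc6a13 were under the filter level at E11. The part of these markers, like that of each glial type, in the Sox10 reading and in those of its targets was not tested.

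Of 7 known targets of Sox9 on the list, most of them cartilage genes, 3 were tested and 1 of these fell. Acan reached 5.24 on 1 array, Hapln1 read at most 4.70, Matn1 2.46 and Col11a2 2.10. Col2a1, the main cartilage collagen, which is also made by early neuroepithelium, fell by 0.41 ± 0.069 (adjusted p = 0.000985). Its level was 7.62 at E11, 8.14 at E12 and 4.60 at E18. Col9a1, a cartilage collagen, read between 6.54 and 7.40 (slope -0.058, adjusted p = 0.169). On the list of 9 cartilage markers, which shares genes with that of the targets, 4 were tested: Col2a1 fell, Matn4 rose, and Col9a1 and Col9a3 (7.47 to 9.16) did not pass. Matn4 was under the filter level at E11 and reached it on 5 arrays, so that its later readings brought it into the test. Nfia, a glial factor downstream of Sox9, had a slope of -0.0033 (adjusted p = 0.947). Of the 8 astrocyte markers Gfap read at most 2.47, and 5 of the other 7 were under the filter level at E11 and came into the test through later arrays, such as Aqp4, which reached 5 on 3 arrays (E17 to P0). Slc1a3, a glutamate transporter that was above the filter level on every array, rose by 0.33 ± 0.056 from 8.10 at E11.

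**Figure D5:**
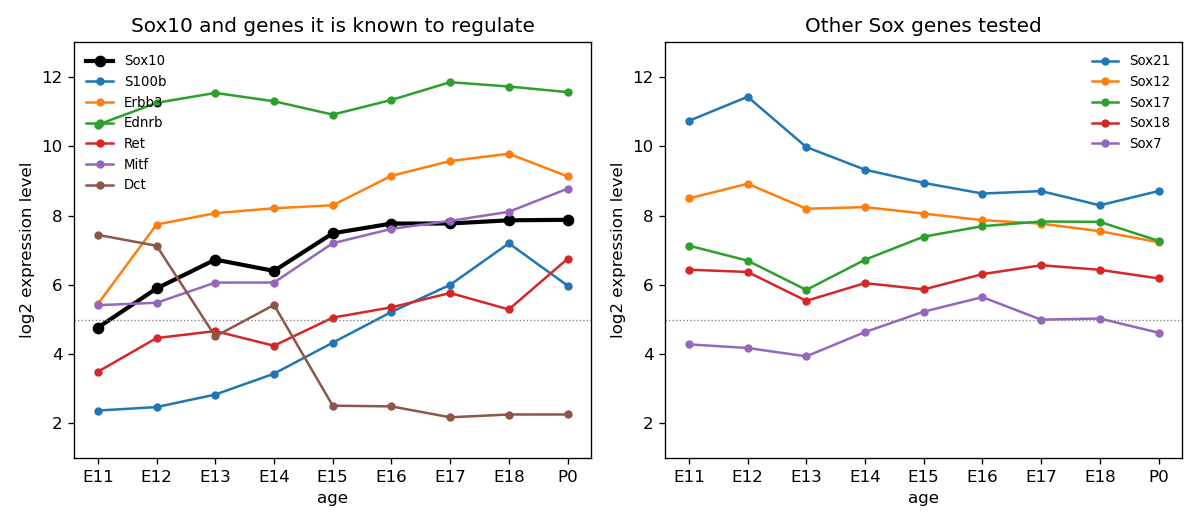
Log2 expression level (vertical axes) against age, 1 array per point, of Sox10 with 6 genes it is known to regulate (left) and of the 5 other Sox genes that passed the filter (right); the dotted line is the filter level of 5. Erbb3, Mitf and S100b rise with Sox10 while Dct goes down, and Sox21 has its highest level, 11.43, at E12.

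The genes most like each member in course were taken as the 5 with the highest Pearson correlation of log2 level over the 9 arrays, leaving out Sox genes and clone names. With 9 points that share age, animal and array, such values are a description and have no p. For Sox10 they were Dnmt3a, a DNA methyltransferase, Sirpa, Pmp22, a myelin protein, Kbtbd11 and Syt7 (r between 0.991 and 0.996). For Sox6 they were Cdon, a Shh co-receptor, Zbed4, Dmrta1, Serinc2 and Adgrl2 (0.992 to 0.994), and for Sox3 they were Acss1, Nhlh1, Nelfe, Boc and Rcc2 (0.987 to 0.992). For Sox9 they were Myo10, Dicer1, Gpc1, Pls1 and Slf2 (0.974 to 0.989), and for Sox2 Epcam, Crabp2, a retinoic acid binding protein, Gltp, Gpc4 and Miip (0.953 to 0.972). Ccnd2, a G1 cyclin, was nearest to Sox11 (0.969), Zbtb18 to Sox5 (0.955), D5Ertd579e to Sox4 (0.947) and Actr8 to Sox1 (0.942).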

How the data were processed

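Log2 expression levels per probe set were deposited by the authors for 9 Affymetrix arrays, and were made with GCRMA, per the submitters' processing notes, which adjusts for background by probe sequence and normalizes the arrays together. Its version is not given in the sources used here; that the scale is log2 follows from the range of the values. RNA went through 2 rounds of amplification per the labels' protocols. Array medians lay between 4.08 and 4.23, and no scaling was added. The number of arrays limits the precision.

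Gene symbols came from the platform annotation. Probe sets at log2 5 or more on at least 2 arrays were kept (21724, without 64 controls), and each gene was read from its probe set with the highest mean (10864 genes). Slopes on age were fitted with limma 3.58.1 in R 4.3.3 (variance moderated with a trend, 7 residual degrees of freedom, 10.3 moderated). Ages followed the labels. Fold changes set values under 5 to 5. Peaks used a squared term with the turning point over 1 day from the ends. Pairs of members were compared by exact permutation of the ages. Named genes were the members, the other Sox genes, list genes with the largest slopes or needed to describe a list, and the 5 genes most like each member. Summed levels are the log2 of the summed linear values of a list's tested genes. The scripts were tested on simulated data. The members and lists were chosen with earlier results of these data known. Alternatives are given in the closing section.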

Additional observations from a re-analysis of the deposited data

How the results depend on the processing

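Over the alternatives, the calls of Sox3, Sox6 and Sox10 held in every fit, and no member slope turned its sign. The falling Sox2 call was the least stable. Besides the E13 to P0 fit given above (slope -0.011), it ended without a filter (-0.11, adjusted p = 0.0707), with P0 at day 20 (-0.098, adjusted p = 0.0525), with sex as a covariate (-0.10, adjusted p = 0.0657) and by exact rank correlation (rho = -0.53, adjusted p = 0.236). The Sox11 call ended with quantile normalization (-0.053, adjusted p = 0.0523), for E17 to P0 against E11 to E13 (a difference of -0.36, adjusted p = 0.0613) and by exact rank correlation (rho = -0.72, adjusted p = 0.0803), and the Sox9 call from E13 to P0 (-0.13). The members that fell then numbered 3 from E13 to P0 and 3 by exact rank correlation. Leaving out 1 array at a time gave 3 to 5 members that fell, the 3 without E12 and without E18, with slopes of -0.14 to -0.079 for Sox2, -0.085 to -0.052 for Sox11, -0.12 to -0.049 for Sox1 and 0.011 to 0.055 for Sox4. Over all genes, 1529 rose and 1193 fell from E13 to P0, and 4487 rose and 5143 fell with every probe set in the fit, which tests more features. Of the pairs of members, 16 differed in slope from E13 to P0 and 24 to 30 when 1 array was left out. From E13 to P0, the slope of Sox1 minus Sox2 was -0.030, opposite in sign to that over all ages. The causes were not tested, although the E13 to P0 fit has fewer arrays. Readings under log2 5, as for Sox3 from E17 and Sox10 at E11, are near the background of the arrays and limit the size of those changes. Where animals of 1 age differ, these data cannot show it. No paired analysis was possible because each age had 1 animal.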
